A study of Bos taurus with 129 samples.

Results

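The genes of cobalamin uptake and use followed here, TCN2, CD320, LMBRD1, ABCD4, MMACHC, MMADHC, MMAA, MMAB, MTR and MTRR, were measured in the whole blood of stocker steers over 60 days. They were taken by symbol from a table of 32395 genes, all 10 were present, and all 10 were among the 18937 genes that passed a filter on low counts over all libraries. The steers, 26 commercial crossbreds at high risk of illness on arrival, gave blood at day 0 and again at days 13, 28, 45 and 60. The INR diet (11 steers) supplied copper, cobalt, manganese and zinc as sulfates. The AAC diet (8 steers) supplied copper, manganese and zinc complexed with amino acids and cobalt as glucoheptonate, and COMBO (7 steers) joined the AAC diet to an oral drench of trace minerals, cobalt among them, given before shipment, at day 0 and alongside any treatment for illness. Within these groups, 12 steers (4 AAC, 4 COMBO, 4 INR) were never diagnosed with bovine respiratory disease (BRD) and are called healthy, and 14 (4 AAC, 3 COMBO, 7 INR) were diagnosed with it. The label covers the whole 60 days and gives no day of diagnosis. Steers with BRD may thus not have been ill on a given sampling day, day 0 included. No group was without cobalt supplement, and all steers were vaccinated and dewormed on day 0, so the change from day 0 is a change of the whole herd. COMBO steers with BRD started in pen 6 and healthy COMBO steers in pen 5, so that label and starting pen cannot be told apart in COMBO. AAC steers of both labels started in pens 2 and 8, and no starting pen held more than 1 supplement. The paper reports that the steers were later rotated between pens at regular intervals to account for pen effects.

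Cobalamin, the only vitamin built around cobalt, is made by microbes, in cattle mostly by those of the rumen from dietary cobalt. In plasma it is bound by transcobalamin (TCN2), enters cells through the receptor CD320, leaves the lysosome through LMBRD1 and ABCD4, and is stripped and routed in the cytosol by MMACHC and MMADHC. One branch then serves methionine synthase (MTR), which is kept active by its reductase MTRR and links the folate and methionine cycles, and the other serves mitochondrial methylmalonyl-CoA mutase, which is loaded through MMAB and MMAA and lets ruminants use propionate, their main glucose precursor.

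Total counts per library ranged from 31613545 to 61692136, with a median of 44268685. Values are given as counts per 1e6 reads (CPM) scaled by trimmed mean of M-values (TMM) factors, and were not compared between genes, since they are not corrected for gene length. Marker lists of neutrophils, monocytes, B cells, T cells, cytotoxic cells, platelets and erythroid cells were all detected in the blood, except that CSF3R and FPR1 of the neutrophil list had no row in the table. In such mixed samples, fewer cells of a type and less RNA per cell cannot be told apart.

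Over all libraries TCN2 was measured at 15.1 to 112.19 CPM (median 39.6), CD320 at 4.81 to 16.36 CPM (median 8.82), LMBRD1 at 18.42 to 39.9 CPM (median 30.5) and ABCD4 at 1.26 to 12.9 CPM (median 6.65). MMACHC was measured at 2.17 to 5.68 CPM (median 3.53), MMADHC at 38.2 to 61.5 CPM (median 47.7), MMAA at 3.40 to 7.81 CPM (median 5.13) and MMAB at 3.51 to 9.80 CPM (median 5.43). MTR was measured at 22.8 to 85.3 CPM (median 51.004) and MTRR at 19.01 to 36.4 CPM (median 26.0). Every member thus had reads in every library, and the lowest raw count, 62, belonged to ABCD4.

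The clearest difference among these genes lay between day 0 and the later days, and it concerned TCN2, the plasma carrier. TCN2 ranged from 27.9 to 112.19 CPM on day 0 (median 46.9, n = 26), from 15.1 to 54.8 CPM on day 13 (median 36.5, n = 25), from 19.6 to 57.14 CPM on day 28 (median 37.7, n = 26), from 21.2 to 58.1 CPM on day 45 (median 39.27, n = 26) and from 22.3 to 62.05 CPM on day 60 (median 37.7, n = 26). The ranges of the days overlapped, but most animals moved the same way: TCN2 was below its own day 0 level in 24 of 25 animals on day 13, 23 of 26 on day 28, 22 of 26 on day 45 and 23 of 26 on day 60. The median ratio to day 0 was 0.748, 0.755, 0.830 and 0.766 on those days. With animal as a block, the log2 fold change against day 0 was -0.50 (SE 0.065), -0.40 (SE 0.064), -0.35 (SE 0.064) and -0.40 (SE 0.064), and the adjusted p values from edgeR's quasi-likelihood test with Benjamini-Hochberg adjustment were 2.75e-09, 3.48e-07, 1.45e-05 and 5.89e-07. TCN2 therefore fell by day 13 and was called lower at each later day, and leaving out any 1 of the 26 animals ended none of these 4 calls. No further change was detected between day 13 and day 60 (log2 fold change 0.10, 95% interval -0.03 to 0.23, adjusted p = 0.360, in a comparison that called 18.3% of all genes).

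**Figure D1:**
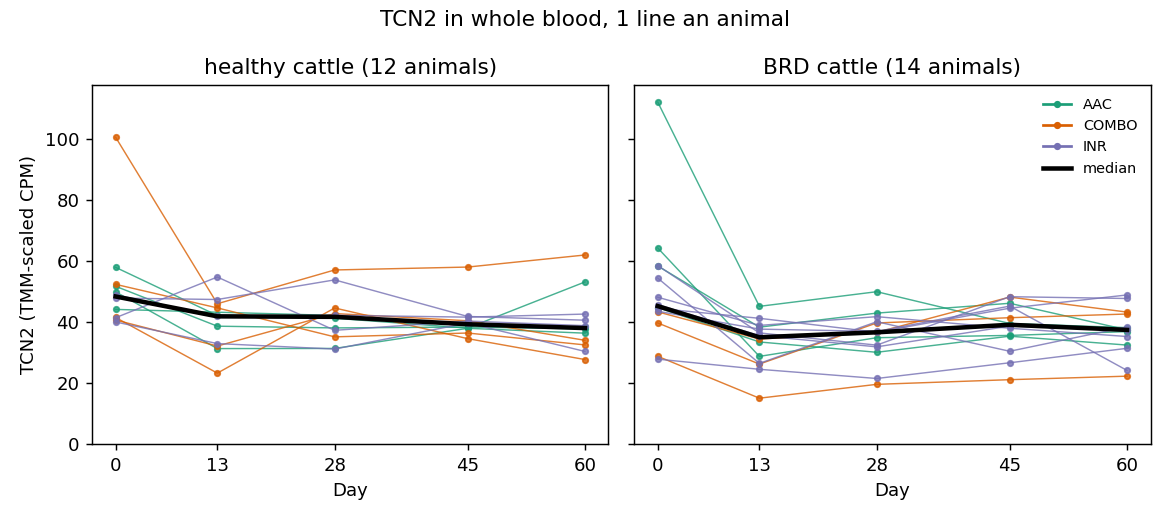
TCN2 level in TMM-scaled CPM (vertical axis) by day (horizontal axis), with 1 line for each animal coloured by supplement and the median of the panel in black, for 12 healthy steers (left) and 14 steers with BRD (right). The medians drop from day 0 to day 13 in both panels, and the 2 highest points, at 112.19 and 100.6 CPM, are both on day 0.

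The fall in TCN2 was present under each disease label and was not called at every day in each supplement group. In healthy steers, TCN2 changed by -0.36, -0.29, -0.31 and -0.37 on the log2 scale from day 0 to days 13, 28, 45 and 60, all called at an adjusted p below 0.10 in comparisons that called 10.9%, 20.93%, 8.54% and 11.61% of all genes tested. In steers with BRD, TCN2 changed by -0.61, -0.50, -0.37 and -0.42, again all called, where 17.37%, 20%, 22.45% and 19.56% of all genes were. The largest difference between the labels in this change, -0.24 at day 13, had a 95% interval of -0.50 to 0.01 and an adjusted p of 1. By supplement, TCN2 changed by -0.70, -0.61, -0.60 and -0.60 in AAC, all called, where 6.79%, 12.66%, 11.88% and 6.63% of all genes were. In COMBO it changed by -0.62, -0.29, -0.27 and -0.36, with days 28 and 45 not called, in comparisons that called 18.07%, 9.97%, 2.38% and 8.79% of all genes. In INR it changed by -0.27, -0.31, -0.20 and -0.26, with day 45 not called, where 7.58%, 14.29%, 14.06% and 18.64% of all genes were. The change in AAC minus that in INR was -0.43 at day 13 (95% interval -0.72 to -0.13, adjusted p = 0.622) and did not pass the adjustment at any day.

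Of the other members, MMAB rose on all 4 days and CD320 on days 28 and 45. By disease label, MMAB was called only on day 45 in healthy steers, where 8.54% of all genes were. CD320 was called only on day 28 in steers with BRD, where 20% were. Both genes were above day 0 on every later day under each label. Compared with day 0, 3 of the 10 members were called on day 13 (1 higher, 2 lower), where 33.12% of all genes were called (17.24% higher, 15.88% lower). On day 28, 4 were called (3 higher, 1 lower) beside 35.97% of all genes (18.58% higher, 17.38% lower). On day 45, 5 were called (4 higher, 1 lower) beside 30.91% (15.76% higher, 15.15% lower), and on day 60, 4 (3 higher, 1 lower) beside 33.25% (16.94% higher, 16.31% lower). With 10 members, counts of 3 to 5 lie near these background shares and are no result about the members as a group. Of the 16 calls over the 4 days, 10 were left without COMBO animal 6, whose day 0 library had the second highest TCN2. The median log2 fold change of the 10 members was 0.04, 0.04, 0.09 and 0.04 on the 4 days, against 0.01, 0.01, -0.01 and 0.00 for all genes tested.

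CD320, the cell surface receptor, had a median of 8.36 CPM on day 0 (4.81 to 11.01) and of 9.16 CPM on day 28 (6.70 to 16.36), and was higher than on day 0 in 21 of 26 animals. It rose by 0.22 on the log2 scale on day 28 (SE 0.066, adjusted p = 0.00783) and by 0.19 on day 45 (SE 0.066, adjusted p = 0.0248), while on days 13 and 60 the changes of 0.10 and 0.13 were not called. TCN2 and CD320, carrier and receptor, thus moved in opposite directions on days 28 and 45.

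Of the lysosomal exporters, LMBRD1 had a median of 29.8 CPM on day 0, 28.4 CPM on day 13 and 32.7 CPM on day 45. It fell by 0.10 on day 13 (SE 0.040, adjusted p = 0.0585), a call lost in 6 of the 26 fits that left out 1 animal, and its change of 0.08 on day 45 was not called (adjusted p = 0.106). LMBRD1 also rose between days 28 and 45 (0.10, adjusted p = 0.0661, where 28.71% of all genes were called) and fell between days 45 and 60 (-0.11, adjusted p = 0.0891, where 8.57% were). ABCD4, its partner, changed by 0.23, 0.04, -0.05 and -0.00 with a standard error of about 0.16, so changes of the size seen in MMAB could not be resolved for ABCD4.

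In the cytosol, MMACHC, which removes the upper ligand of cobalamin, had a median of 3.38 CPM on day 0 and 3.80 CPM on day 45 and rose on day 45 alone (0.13, SE 0.049, adjusted p = 0.0403), a call lost in 3 of 26 such fits. MMADHC, which directs cobalamin to either branch, was the steadiest member: its medians lay between 47.2 and 48.1 CPM on the 5 days, its changes from day 0 between -0.05 and -0.02, and its 95% intervals between -0.12 and 0.04. None of its changes was called.

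In the mitochondrial branch, MMAB, the adenosyltransferase, had medians of 4.99, 5.66, 5.52, 5.70 and 5.48 CPM from day 0 to day 60 in order, and was above its own day 0 level in 21 of 25, 22 of 26, 20 of 26 and 17 of 26 animals on the later days. MMAB rose by 0.15 (SE 0.060, adjusted p = 0.0439), 0.17 (SE 0.059, adjusted p = 0.0199), 0.18 (SE 0.059, adjusted p = 0.0155) and 0.18 (SE 0.059, adjusted p = 0.0189). MMAA, the chaperone of the mutase, rose on day 45 (0.14, SE 0.059, adjusted p = 0.0807), was higher in 20 of 26 animals that day, and was not called on the other days. That call was lost in 16 of the 26 fits that left out 1 animal, while those of MMAB were lost in none. The mutase itself, listed under its older symbol MUT and not a member, rose on all 4 days by 0.13, 0.14, 0.21 and 0.22 (adjusted p from 3.06e-08 to 0.00159), and was higher in 21 of 25, 23 of 26, 21 of 26 and 23 of 26 animals.

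In the methionine branch, MTR had medians of 48.7 CPM on day 0 and 52.98 CPM on day 28, and rose on day 28 (0.15, SE 0.066, adjusted p = 0.0731) and on day 60 (0.14, SE 0.066, adjusted p = 0.0966), with 19 of 26 animals higher on each of those days. The call on day 60 was lost in 16 of 26 fits that left out 1 animal, and that on day 28 in 6. MTRR rose on day 60 (0.07, SE 0.029, adjusted p = 0.0564), when 17 of 26 animals were higher, and that call was lost in 5 of 26 fits.

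**Figure D2:**
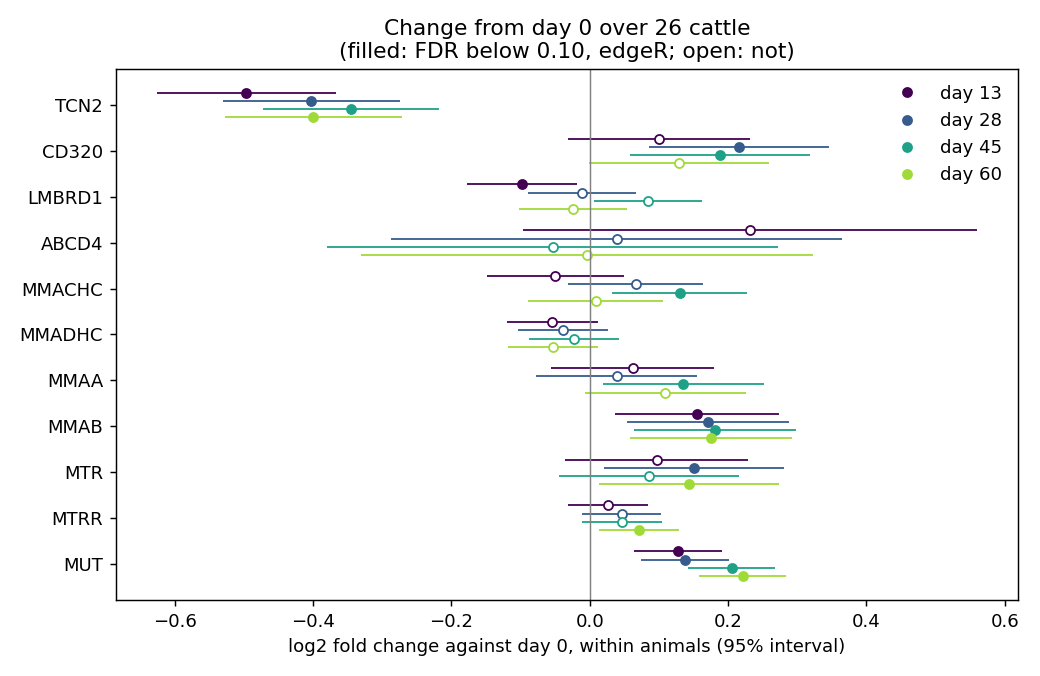
Log2 fold change against day 0 within animals (horizontal axis) with its 95% interval for the 10 members and MUT (vertical axis), in 4 colours for days 13, 28, 45 and 60, with filled points where the adjusted p was below 0.10 in edgeR. TCN2 sits left of 0 at -0.35 to -0.50 on all 4 days, MMAB and MUT sit right of 0 on all 4 days, and ABCD4 has the widest intervals.

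Beyond the members, 3 lists of genes of the same pathways were tested over the same days. Of the other cobalamin binding, uptake and control genes, 10 of 11 were tested, and 5, 4, 5 and 6 were called on days 13, 28, 45 and 60, beside the 33.12%, 35.97%, 30.91% and 33.25% of all genes called on those days. All 3 lists are to be read against these shares, and the genes named below are single genes, not a result about their list. TCN1, the cobalamin binder haptocorrin stored in neutrophil granules, had a median of 79.6 CPM on day 0 (28.2 to 346.6) and of 47.8 CPM on day 28 (21.3 to 125.002). It fell on days 13, 28 and 60 by 0.55, 0.81 and 0.48, and its -0.33 on day 45 was not called. In steers with BRD, TCN1 changed by -0.80, -1.15, -0.66 and -0.70 on the 4 days, all called. In healthy steers it changed by -0.24, -0.40, 0.07 and -0.20, none of them called. No gene was called for a difference between the labels in this change. CUBN and AMN, the subunits of the intestinal receptor for intrinsic factor with cobalamin, were called lower on all 4 days, by 0.26 to 0.35 for CUBN and by 0.27 to 0.47 for AMN. CLYBL, a mitochondrial enzyme that clears an inhibitor of the mutase pathway, rose on all 4 days by 0.14 to 0.26. ZNF143, which with HCFC1 and THAP11 drives MMACHC transcription, rose on days 45 and 60 by 0.15 and 0.08 and THAP11 fell on day 13 alone by 0.12. LRP2 reached at most 3 counts in a library and was not tested.

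All 9 genes of the propionate list were tested, of which 3 were called on day 13 (all higher), 4 on day 28 (all higher), 6 on day 45 (4 higher, 2 lower) and 3 on day 60 (all higher). Besides MUT, ACSS1, a mitochondrial acyl-CoA synthetase, rose on all 4 days by 0.08 to 0.18, and PCCB, a subunit of propionyl-CoA carboxylase, rose on days 28, 45 and 60 by 0.17, 0.21 and 0.18. Its partner PCCA changed by 0.19, 0.09, -0.10 and 0.07, called higher on days 13 and 28 and lower on day 45.

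Of the folate and methionine cycle, 22 of 25 genes were tested, with 5, 10, 7 and 9 called on the 4 days (3, 6, 3 and 2 higher), counts that lie on both sides of the shares of all genes. MTHFD2, a mitochondrial folate enzyme, rose on all 4 days by 0.12 to 0.25, and TYMS, thymidylate synthase, rose on days 13 and 28 by 0.28 and 0.24. AHCY, which clears the product of methylation reactions, fell on days 13, 28 and 60 by 0.28, 0.33 and 0.22. CBS, the entry to cysteine synthesis, fell on days 28, 45 and 60 by 0.21, 0.35 and 0.27, and FPGS, which retains folates in cells, fell on day 60 by 0.26.

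Markers of blood cell types moved over the same days. The summed level of the 5 monocyte markers had medians of 1070, 650.2, 608.1, 665.8 and 636.3 CPM at days 0, 13, 28, 45 and 60, respectively, with ranges of 510.5 to 2836 CPM on day 0 and 310.9 to 1342 CPM later, and 3, 4, 3 and 5 of its 5 genes were called lower. The 6 neutrophil markers tested summed to 2507 CPM at the median on day 0 and to between 1709 and 1979 CPM later, the 7 erythroid markers to 138.4 CPM on day 0 and to between 841.1 and 2464 CPM later, and the 6 B cell markers to 1945 CPM on day 0 and to between 2053 and 2390 CPM later. Across all libraries, which include up to 5 libraries of the same animal, TCN2 had a Pearson r of 0.636 with the mean log2 level of the monocyte list and of 0.408 with that of the neutrophil list. MTR had an r of 0.749 with the B cell list, MMACHC of 0.660, MTRR of 0.544 and CD320 of 0.495. The part of these cell type levels in the change of the members was not tested.

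The supplements were compared as whole programs, which do not isolate the source of cobalt. The sources of copper, manganese and zinc change with it between the INR and AAC diets. For healthy cattle, the paper also reports that intake of cobalt and of these minerals in AAC differed from that in COMBO and INR. Over days 13 to 60, with the counts of each animal summed, none of the 30 tests of 10 members in 3 pairs was called, none had an unadjusted p below 0.05, and 0% of all genes were called in each pair by edgeR. DESeq2 also called 0 of the 30. The largest difference of a member was 0.12 on the log2 scale, MTR lower in AAC than in COMBO (95% interval -0.39 to 0.15). For TCN2, the intervals ran from -0.25 to 0.26 for AAC against INR, from -0.33 to 0.21 for COMBO against INR and from -0.22 to 0.35 for AAC against COMBO. MMADHC had the tightest intervals, -0.04 to 0.13, -0.05 to 0.13 and -0.09 to 0.10 for the same pairs. Differences inside these intervals cannot be told from 0 with 26 animals, and larger ones could also be missed. In counts simulated at the common dispersion of all genes, a log2 change of 1 was called in 57% of changed genes for AAC against INR. The members' own intervals reached only 0.086 to 0.28 to either side, so that share need not hold for the members.

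**Figure D3:**
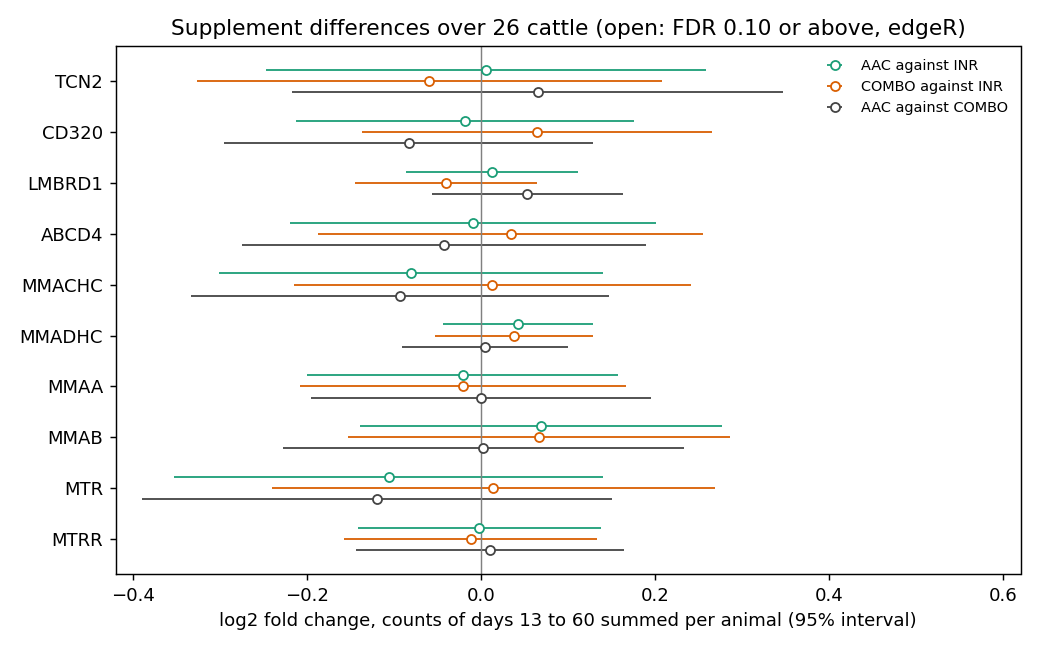
Log2 fold change between supplements (horizontal axis) for the 10 members (vertical axis) from counts of days 13 to 60 summed per animal, with 95% intervals and 1 colour for each pair of supplements. All points are open, since none was called, and all lie within 0.12 of 0.

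In the healthy steers taken day by day, 0 of 150 tests were called by edgeR, 11 had an unadjusted p below 0.05, and the smallest adjusted p was 0.235 (MMADHC, AAC against INR, day 13). DESeq2 called 0 of them as well. Between 0% and 0.312% of all genes were called in these 15 comparisons. Of those 11, 4 fell in the comparison of AAC with INR on day 60, where MMAB (0.43), MMACHC (0.43), CD320 (0.39) and MMADHC (0.21) were all higher in AAC, each at an adjusted p of 0.629. MMACHC there was 3.73, 3.80, 4.298 and 5.27 CPM in the 4 AAC steers and 2.71, 3.01, 3.16 and 3.71 CPM in the 4 INR steers, in a comparison that called 0% of all genes. An unadjusted p below 0.05 was reached in that comparison by 1427 of all 18269 genes tested.

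In the steers with BRD, 5 of 150 tests were called, all of them between AAC and COMBO on days 0 and 13. On day 0, where 12.89% of all genes were called, TCN2 was 44.8, 58.4, 64.4 and 112.19 CPM in the 4 AAC steers and 28.8, 39.8 and 43.401 CPM in the 3 COMBO steers. TCN2 was thus 0.90 higher in AAC on the log2 scale (SE 0.280, adjusted p = 0.0364). MMACHC was 2.55, 2.79, 3.21 and 3.30 CPM in AAC and 3.52, 3.87 and 5.29 CPM in COMBO, 0.51 lower in AAC (SE 0.174, adjusted p = 0.0567). MTRR was 19.01, 23.2, 24.8 and 25.7 CPM in AAC and 27.5, 28.8 and 32.7 CPM in COMBO, 0.36 lower in AAC (SE 0.122, adjusted p = 0.0585). On day 13, where 5.93% of all genes were called, MTR was 29.3, 38.9, 44.8 and 44.9 CPM in AAC and 59.8, 69.38 and 69.9 CPM in COMBO, 0.77 lower in AAC (SE 0.243, adjusted p = 0.0710). MMACHC was again lower in AAC that day, by 0.54 (SE 0.175, adjusted p = 0.0756). Each of these calls was lost in 3 to 6 of the 14 fits that left out 1 animal, in groups of only 3 or 4 steers. Without AAC animal 21 or without COMBO animal 18, 0 of the 150 tests were called, and without AAC animal 9, AAC animal 31 or COMBO animal 54, 1 was, whereas the direction of each of the 5 differences stayed in all 14 fits that left out 1 animal. Without AAC animal 21, TCN2 was 0.60 higher in AAC on day 0 (adjusted p = 0.237), MMACHC 0.55 lower (adjusted p = 0.104) and MTRR 0.26 lower (adjusted p = 0.283). Without COMBO animal 18, MMACHC was 0.32 lower in AAC on day 0 (adjusted p = 0.494). Day 0 was the day of pen enrolment, and of the 3 supplements only COMBO had by then a product given, the drench before shipment. All COMBO steers with BRD also started in pen 6. Drench and starting pen cannot be told apart in this comparison, and the part of either was not tested. In the other 13 comparisons of steers with BRD no member was called. All genes called there came to 0.373%, 0.0433% and 0.0812% for AAC against COMBO on days 28, 45 and 60, to 0.325%, 0.942%, 0.319%, 0.146% and 1.21% for AAC against INR at days 0, 13, 28, 45 and 60, respectively, and to 0.92%, 0%, 0.00541%, 0% and 0.0108% for COMBO against INR at the same days.

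Genes of the neighbouring pathways were also called between AAC and COMBO steers with BRD. All genes called there came to 12.89% on day 0 and 5.93% on day 13. The counts below are to be read against these shares and are no result about the lists. On day 0, 8 of 22 folate and methionine genes were called, 2 higher and 6 lower in AAC, with MTHFD1 (-0.45) and the folate carrier SLC19A1 (-0.92) lower and MTHFD2L (1.36) higher. The propionate list had 2 of 9 called, PCCB higher (0.69) and ACSS1 lower (-0.31). All 6 B cell markers were lower in AAC on day 0 and 2 of 6 on day 13. Their summed level was 905.8 to 1410 CPM in AAC and 2167 to 3272 CPM in COMBO on day 0, and 1004 to 1721 CPM and 2336 to 2381 CPM on day 13. The monocyte markers summed to 920.4 to 2554 CPM in AAC and 510.5 to 981.7 CPM in COMBO on day 0, with CD163 and CSF1R called higher in AAC. The part of these lists in the differences of the members was not tested.

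MMACHC levels in the AAC steers with BRD lay at the low end of the series on most days. Its levels there were 2.55 to 3.30 CPM on day 0, 2.17 to 2.84 CPM on day 13, 2.67 to 2.85 CPM on day 28, 3.06 to 3.60 CPM on day 45 and 2.37 to 3.11 CPM on day 60. In the healthy AAC steers, which started in the same pens, MMACHC was 3.02 to 5.24, 4.04 to 4.50, 2.91 to 5.68, 3.32 to 4.86 and 3.73 to 5.27 CPM on those days. On day 60 MMACHC was not called within AAC, where 0% of all genes were. Averaged over the libraries of each animal, MMACHC was 2.75, 2.81, 2.88 and 3.10 CPM in the AAC steers with BRD and 3.55 to 5.11 CPM in the healthy AAC steers. Within AAC, MMACHC was lower in steers with BRD by 0.71 on day 13 (adjusted p = 0.0415, where 0.29% of all genes were called) and by 0.54 on day 28 (adjusted p = 0.0830, where 1.52% were), and MTR was lower by 0.85 on day 0 (adjusted p = 0.0332, where 3.08% were). Of the 26 fits that each dropped 1 animal, 6 ended the call of MMACHC on day 13, 16 that of MMACHC on day 28 and 3 that of MTR on day 0, the fit without AAC animal 21 among them in each case, and none turned a direction. Without healthy AAC animal 49, the difference of MMACHC on day 28 shrank from 0.54 to 0.32 (adjusted p = 0.609). These comparisons within AAC were added after the levels had been seen, and by edgeR no member was called within COMBO or within INR. At days 0, 13, 28, 45 and 60, respectively, 5.54%, 0.00528%, 0.0158%, 0% and 0% of all genes were called within COMBO. Within INR, 0.00528%, 1.68%, 0.0106%, 0.0158% and 0.00528% were. An unadjusted p below 0.05 on those days was reached by 4, 1, 1, 0 and 0 members within COMBO, beside 3438, 1572, 1720, 702 and 1140 of all 18937 genes tested. Within INR it was reached by 0, 0, 1, 0 and 1 members, beside 1174, 2075, 1017, 731 and 833 genes.

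The supplement difference in steers with BRD was then set against that in healthy steers in a model of all libraries that was added after those differences had been seen. For AAC minus COMBO on day 0, where 16.35% of all genes were called, MMACHC (-0.79, adjusted p = 0.0192), MTR (-1.08, adjusted p = 0.0217), MTRR (-0.54, adjusted p = 0.0358) and TCN2 (1.11, adjusted p = 0.0346) differed between the labels. The same pair differed between the labels for MMACHC on day 13 (-0.91, adjusted p = 0.0913, 0.454% of all genes) and on day 60 (-0.88, adjusted p = 0.0737, 0.782%) and for CD320 on day 28 (-0.86, adjusted p = 0.0985, 1.9%). For AAC minus INR, MMACHC differed on day 13 (-0.73, adjusted p = 0.0826, 2.07%). Leaving out 1 animal at a time, MTR on day 0 remained called in all 26 fits (-1.18 to -0.90), but barely so without COMBO animal 6 (adjusted p = 0.099996). MMACHC on day 0 remained called in all but the fit without COMBO animal 18 (-0.59, adjusted p = 0.170). TCN2 on day 0 was not called without AAC animal 21 (0.81, adjusted p = 0.152) or without COMBO animal 6 (0.74, adjusted p = 0.191), and MTRR on day 0 was lost in 5 fits. The differences on days 13, 28 and 60 were lost in 11 to 21 of 26 fits each. On day 60 the summed level of the B cell list was 1009 to 1694 CPM in AAC steers with BRD, 2100 to 3158 CPM in healthy AAC steers, 2286 to 2533 CPM in COMBO steers with BRD and 1581 to 2305 CPM in healthy COMBO steers.

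**Figure D4:**
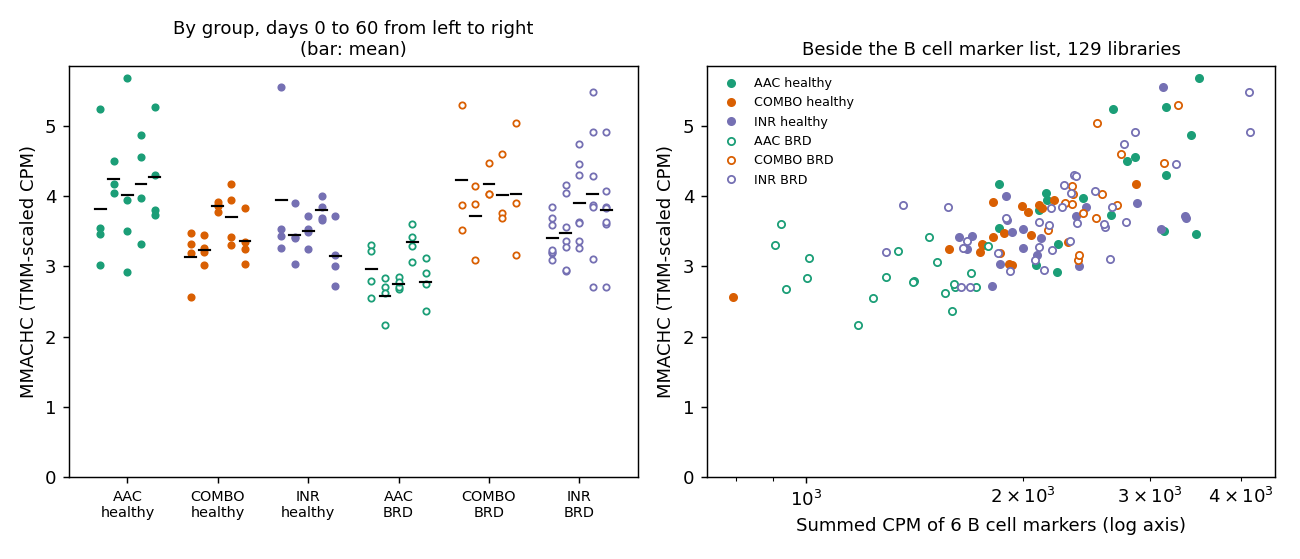
MMACHC in TMM-scaled CPM (vertical axes) for every library by supplement and disease label, with days 0, 13, 28, 45 and 60 from left to right within a group and the mean as a bar (left), and against the summed CPM of 6 B cell markers on a log axis (right). AAC steers with BRD (open green) sit between 2.17 and 3.60 CPM and mostly at the low end of the B cell axis.

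Between the disease labels as a whole, no member was called. Averaged over the 3 supplements, 0 of 50 tests of BRD against healthy passed in edgeR, 2 had an unadjusted p below 0.05, and 0.0158%, 0%, 0.00528%, 0% and 0.00528% of all genes were called at days 0, 13, 28, 45 and 60, respectively. DESeq2 called 0 of the 50. TCN2 was 0.31 lower in BRD on day 13 (95% interval -0.59 to -0.03, adjusted p = 1) and MTR 0.25 lower on day 0 (95% interval -0.50 to -0.00, adjusted p = 0.702). For MMACHC, the intervals over the 5 days ran from -0.35 to 0.15. The change from day 0 also differed between labels in 0 of 40 tests by edgeR, none with an unadjusted p below 0.05, where 0% of all genes were called. Between supplements it differed in 0 of 120 tests, of which 8 had an unadjusted p below 0.05, and 0% to 1.14% of all genes were called (1.14% for AAC against COMBO at day 13, 0.0106% at day 28).

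How much of a gene's variation lay between animals differed widely among the members. Animal accounted for 69.42% of the variance of log2 CPM for MTRR, 61.8% for MMACHC, 58.6% for MTR, 54.595% for TCN2, 45.5% for MMAB, 43.5% for MMAA, 37.5% for CD320, 33.8% for MMADHC, 32.5% for LMBRD1 and 16.6% for ABCD4. The median over all genes tested was 42.1%, and 19.5% is the share of the degrees of freedom that the animal terms take up. INR animal 10 held MTRR at 32.6 to 36.4 CPM in its 5 libraries, above all but 1 library of the other 25 animals, and INR animal 40 held it at 19.3 to 22.1 CPM. ABCD4 behaved otherwise: AAC animal 21 covered 1.26 to 12.9 CPM in its 5 libraries, nearly the whole range of the series, and the means of the animals lay between 4.93 and 10.01 CPM.

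**Figure D5:**
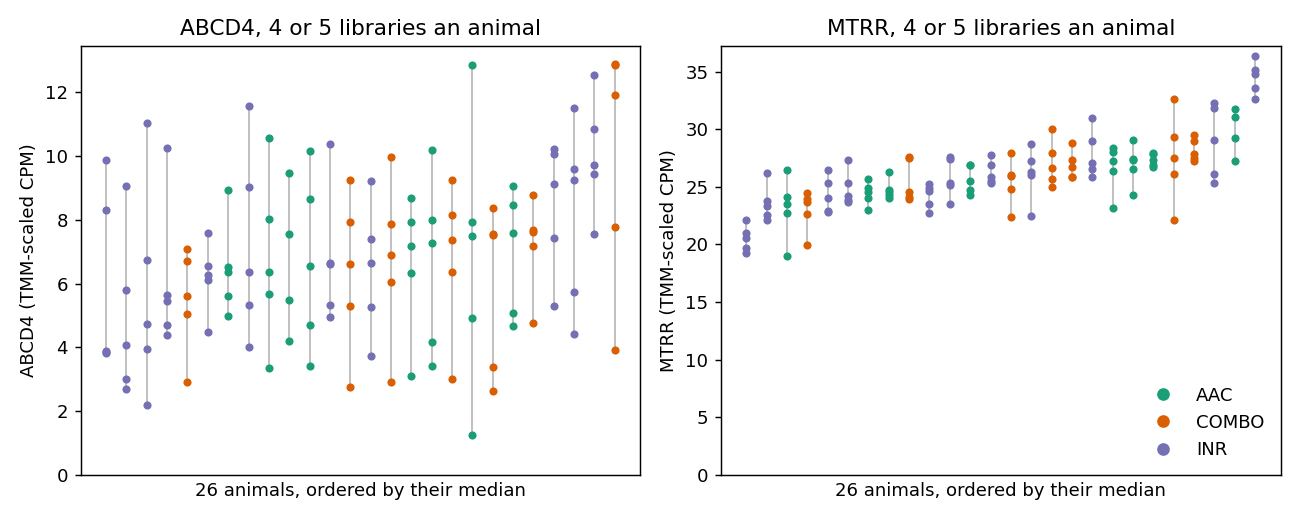
ABCD4 (left) and MTRR (right) in TMM-scaled CPM (vertical axes) for each library, with the libraries of an animal joined by a line and the 26 animals ordered along the horizontal axis by their median. The lines of ABCD4 span much of the panel in most animals, up to 1.26 to 12.9 CPM, whereas those of MTRR are short and INR animal 10 stands highest at 32.6 to 36.4 CPM.

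Across all libraries, the 2 genes most like each member were found by Pearson r of log2 CPM over 18936 other genes. MTR was most like B4GALT6 (r 0.897) and LIMD1 (0.881), TCN2 like SLC15A3 (0.797) and PYCARD (0.787), and CD320 like CDK4 (0.802) and TRIM28 (0.794). MMACHC was most like POLD2 (0.773) and THOP1 (0.757), MMADHC like PSMA1 (0.795) and SNRPB2 (0.783), MTRR like SMARCAD1 (0.757) and GPATCH2 (0.751), and LMBRD1 like BAG6 (0.754) and UQCRFS1 (0.741). MMAA was most like DHPS (0.673) and LSP1 (0.666) and MMAB like FABP3 (0.653) and RPS3A (0.646), whereas for ABCD4 the best was LOC783421 at 0.369. Among the members themselves, the highest r were between MTR and MTRR (0.657) and between LMBRD1 and MMADHC (0.593), and the lowest between MMAB and MTR (-0.381). Libraries of the same animal are not independent, so these values describe the table and were not tested.

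In the gene order of RefSeq's assembly ARS-UCD2.0, which is not the build of the counts and was used for order alone, no member overlapped another protein-coding gene. MMACHC lies next to PRDX1, with which it had an r of 0.286, MMAB next to MVK (0.462), MTRR next to FASTKD3 (0.440) and CD320 next to NDUFA7 (0.651). The other neighbours with a value lay on both sides of 0. TCN2 had an r of -0.048 with PES1 and 0.109 with SLC35E4, CD320 0.605 with CERS4 and MMACHC 0.182 with CCDC163. MMADHC had -0.233 with RND3 and -0.264 with LYPD6, and MMAA -0.204 with SMAD1. For MMAB it was -0.378 with UBE3B, for MTR -0.003 with ACTN2 and for MTRR -0.129 with SEMA5A.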

How the data were processed

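Whole blood was collected in Tempus tubes, and stranded mRNA libraries were sequenced as paired reads. The authors trimmed the reads (Trimmomatic 0.39), aligned them to the cattle assembly ARS-UCD1.3 with HISAT2 (2.1.1 in the submitters' processing notes, another release in the study's methods), assembled them with StringTie 2.2.0 and converted its coverage to gene counts, which were deposited as raw counts per gene, so the counts are estimates derived from coverage and multi-mapping reads can be split between copies. The library of 1 AAC steer at day 13 was removed by the authors. Every deposited column matched 1 sample by its label.

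From these counts, edgeR 4.0.16 (R 4.3.3) was used with TMM factors, its filter on low counts (minimum 10), a common dispersion after the study's methods, the quasi-likelihood F-test and Benjamini-Hochberg adjustment over all genes tested. A gene is called at an adjusted p below 0.10. Intervals are 95%. Supplement pairs were fitted at each day in 59 libraries of healthy steers and in 70 of steers with BRD, and on the counts of days 13 to 60 summed per animal (26 sums). Changes from day 0 used animal as a block, with the dispersion estimated on 2000 genes. In the comparisons at each day, p values treat libraries as independent samples of different animals within a day, while the spread is shared over days that hold the same animals. Starting pen and supplement cannot be told apart, since no starting pen held more than 1 supplement. The steers were later rotated between pens, and the pens after day 0 are not in the labels.

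The members, gene lists and tests were chosen with earlier results of these data known. The text names the 10 members, always MUT and TCN1, of 3 pathway lists the up to 4 called genes of smallest p in each list and comparison (some genes of the folate and methionine list are not reported here), and for each member the 2 genes of highest r. Alternatives included DESeq2 1.42.0, other scaling, filters, dispersion and threshold, and leaving out each animal. The fits were tested on simulated data. Figures were drawn with matplotlib 3.10.9 (Python 3.11.15), and RefSeq symbols matched 53 of 55 member and pathway genes.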

Additional observations from a re-analysis of the deposited data

Results flagged for a closer look

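Within groups of 4 or 7 steers of 1 supplement, disease label and day, 19 of 240 checks found a lowest or highest value set far apart from the rest of its group, where chance alone marks about 1 in 20 groups. Of these, 3 came from AAC animal 21 with BRD on day 0, with LMBRD1 at 39.9 CPM (nearest other 31.12), MMAB at 9.01 CPM (5.37) and MTR at 22.8 CPM (37.1). The same library held the highest TCN2 of the series, 112.19 CPM, and of its group the lowest B cell and the highest monocyte marker sums, 905.8 and 2554 CPM. INR animal 10, healthy, stood high in MMACHC on day 0 at 5.55 CPM (3.53) and in MTRR on day 45 at 34.8 CPM (24.2). INR animal 40 with BRD stood high in CD320 on day 60 at 14.75 CPM (9.68) and in MMAB on day 28 at 7.21 CPM (5.97). The paper singles out the day 60 library of animal 40 for its low RNA integrity. INR animal 30, healthy, stood low in LMBRD1 on day 28 at 23.2 CPM (30.5) and on day 60 at 18.42 CPM (29.701).

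MTR was also set apart in AAC animal 31 with BRD on day 28 at 50.9 CPM (40.312) and, among healthy COMBO steers, in animal 6 on day 0 at 28.9 CPM (48.3), animal 3 on day 13 at 35.7 CPM (51.004) and animal 42 on day 60 at 44.8 CPM (53.8). The remaining values were TCN2 in healthy AAC animal 49 on day 60 at 53.2 CPM (38.34), CD320 in healthy COMBO animal 3 on day 45 at 7.41 CPM (9.36), LMBRD1 in INR animal 29 with BRD on day 0 at 35.4 CPM (29.2) and ABCD4 in healthy INR animal 50 on day 28 at 9.22 CPM (6.74). MMAA in AAC animal 9 with BRD on day 28 was 3.82 CPM (4.895), and MMAB in healthy AAC animal 34 on day 28 was 6.55 CPM (5.44).

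Differences of 1 contrast between groups (the supplement difference between disease labels at each day, and the change from day 0 between labels and between supplements) were tested 310 times over the 10 members, and 8 of these interaction terms passed in edgeR, all of them supplement differences between labels. For AAC against COMBO, steers with BRD minus healthy steers, these were MMACHC at -0.79, MTR at -1.08, MTRR at -0.54 and TCN2 at 1.11 on day 0, MMACHC at -0.91 on day 13, CD320 at -0.86 on day 28 and MMACHC at -0.88 on day 60. For AAC against INR it was MMACHC at -0.73 on day 13. The summed level of the B cell markers on day 0 was 905.8 to 1410 CPM in AAC steers with BRD, 1849.7 to 3473 CPM in healthy AAC steers, 2167 to 3272 CPM in COMBO steers with BRD and 791.5 to 1880.4 CPM in healthy COMBO steers. On day 13 it was 1004 to 1721, 1849 to 2784, 2336 to 2381 and 1656 to 2053 CPM in the same groups, 1674 to 2596 CPM in INR steers with BRD and 1628 to 2877 CPM in healthy INR steers. The part of these levels in the differences was not tested.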

How the results depend on the processing

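Alternatives were trended dispersion, RLE factors, no filter and a stricter filter on low counts, a threshold of 0.05, DESeq2, other sets of libraries and leaving out each animal. The share of all genes called under each alternative is not given here, so the counts below are no result about the members as a group. The 4 day changes of TCN2 and the calls of CD320 on days 28 and 45 and of MMAB on days 28, 45 and 60 kept direction and call under all of them. Among steers with BRD, 5 members' calls became 2 without a filter, 1 at a threshold of 0.05, 9 in DESeq2 and 2 as changes from day 0 with animal as replicate block, and 0 to 8 with 1 animal left out. The cause was not tested. In healthy steers the count was 0 under every alternative including DESeq2, and 0 to 1 with 1 animal left out (1 without INR animal 10). For BRD against healthy it was 0 throughout with 1 animal left out (0 to 0), and 3 within AAC alone. The 16 calls against day 0 became 9 with no replicate block and 10 to 17 with 1 animal left out, with 15 in DESeq2. The remaining counts, summed days and the changes from day 0 between labels and supplements, stayed at 0 under each alternative run, and at 0 to 0 with 1 animal left out where that was run. Leaving out animals for the change from day 0 between supplements was not run, and other leave-outs held the dispersion fixed. Groups of steers with BRD held 3 to 7 animals. The 95% intervals of members there reached from 0.17 to 0.98 on the log2 scale to either side, depending on the gene and groups. Differences within a gene's own interval cannot be told from 0, and larger ones could also be missed. In counts simulated at the common dispersion, a log2 change of 1 was called in 2.5% of changed genes for AAC against COMBO on day 0. That share belongs to the common dispersion of all genes and need not hold for the members.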
